A study of Mus musculus with 20 samples.

Results

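This account follows 9 genes that set or read out the identity of the hepatocyte: the transcription factors Hnf4a, Cebpa, Foxa1, Foxa2, Foxa3 and Onecut1, the orphan nuclear receptor Nr5a2, and the xenobiotic receptors Nr1i2 (PXR) and Nr1i3 (CAR). They were chosen by name, as known regulators, with earlier results of these data known. All 9 were found among the 46078 genes of the count table, and all 9 passed the filter on low counts with 14759 genes in total.

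The livers came from male mice on a 129/C57BL/6 background, at least 9 weeks old, that carried 1 or no working copy of Cse (gene symbol Cth), the enzyme that makes cysteine from cystathionine. The labels call the control genotype WT, whereas the study's list of mice gives it as heterozygous (Cse+/-), and that name is used here. All mice were calorie restricted, first for 3 days on a control amino acid diet and then for 2 days on the same diet, on one without cysteine (no-Cys) or on one without tryptophan (no-Trp). There were 2 Cse+/- mice on the control diet (CTR), 4 Cse+/- and 4 Cse-/- mice on no-Cys, 3 Cse+/- and 3 Cse-/- mice on no-Trp, and 4 Cse-/- mice on no-Trp with L-buthionine sulfoximine (BSO), which inhibits the first enzyme of glutathione synthesis. No Cse-/- mice fed the control diet are among these samples.

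The libraries held 11785740 to 57986121 gene counts, with a median of 15252745. Cth was at 88.4 to 332 CPM, that is counts scaled to the size of the library, in the Cse+/- livers and at 6.37 to 14.4 CPM in the Cse-/- livers, so that every library matched its genotype. Abundant hepatocyte markers such as Alb were high in all libraries, whereas the summed CPM of 6 adipocyte markers was 36.7 in Cse-/- no-Trp mouse av14 and 38.0 in Cse+/- no-Trp mouse av17, against 7.44 to 14.2 in the other livers. The sum of the hepatocyte markers was 58893 to 93560 CPM in Cse-/- no-Cys livers and 104308 to 135743 CPM in Cse+/- no-Cys livers. Most of this gap was in Alb, the plasma protein albumin, at a mean of 32673 against 78315 CPM. Of the 10 markers, 4 fell by edgeR (Alb, Apoa1, Ttr and Serpina1c), Cps1 rose by 0.58 and 5 were not called, with a list median of -0.24, where 12.2% of all genes fell and 11.6% rose. In whole liver, fewer cells of a type and less RNA per cell cannot be told apart.

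Hepatocyte identity is held by a small circuit of factors that bind to each other's promoters and to the promoters of secreted and metabolic genes. FOXA proteins are pioneer factors that open compact chromatin in liver. HNF4A, C/EBPα and ONECUT1 (HNF6) then keep the adult gene programme active. NR5A2 (LRH-1) acts on bile acid and cholesterol genes. PXR and CAR sense drugs, bile acids and other small molecules, pair with RXR and turn on genes of detoxification. A receptor of this kind is controlled largely by ligand and by entry into the nucleus, which mRNA does not report.

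The 9 genes spanned a wide range of level. Per kilobase of exon, the median over the 20 livers was 213 CPM per kb for Cebpa and 170 for Hnf4a, followed by 49.6 for Nr1i2, 31.3 for Foxa3, 21.7 for Nr1i3, 12.3 for Nr5a2, 11.2 for Foxa2, 7.23 for Foxa1 and 2.39 for Onecut1. Cebpa was above Hnf4a in 18 of 20 livers, and Hnf4a was above Nr1i2 in 20 of 20. The neighbours Nr5a2 and Foxa2 kept that order in only 11 of 20 livers, so these levels did not differ beyond their spread, and Foxa3 was above Nr1i3 in 15 of 20. The level of Nr1i3 is uncertain on this scale, because 61.1% of the 61-base stretches of its transcripts, 61 bases being the read length, also occur on the opposite strand in Tomm40l. The library kit did not mark strand, and reads in the shared part cannot be assigned to either gene. Onecut1 shares 52.1% of its stretches with the noncoding gene Gm20649 on the same strand, which had no counts in any library. How reads of that shared part were assigned is not known, so the level of Onecut1 is uncertain on this scale too. The remaining 7 genes shared none with another gene.

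**Figure D1:**
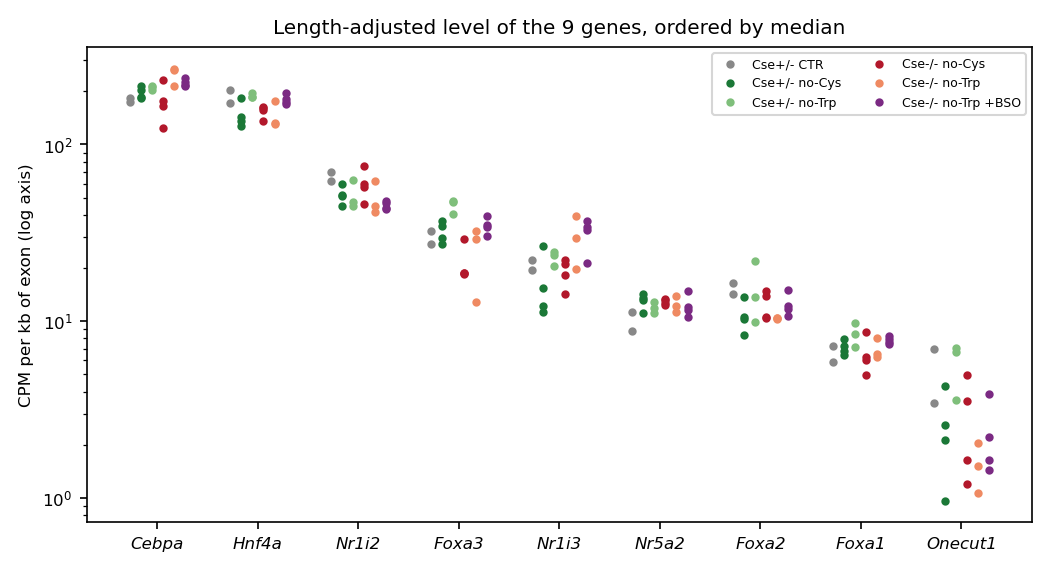
Level of each gene in each of the 20 livers in CPM per kb of exon, on a log axis, with genes ordered by their median and points coloured by group. Cebpa and Hnf4a stood at the top with medians of 213 and 170, and Onecut1 stood at the bottom with a median of 2.39 and the widest scatter.

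The genes also differed in how much they varied between mice. The biological coefficient of variation, the relative spread between mice of a group after counting noise, was 0.115 for Nr5a2, 0.132 for Hnf4a, 0.138 for Foxa1 and 0.144 for Cebpa. It was 0.205 for Foxa3, 0.240 for Nr1i3 and 0.423 for Onecut1. From the lowest to the highest liver, Hnf4a ranged 1.59-fold, Nr5a2 1.67-fold and Onecut1 7.30-fold.

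Changes were tested with edgeR's quasi-likelihood test on the counts, fitted over all genes and 20 libraries, and a gene was called at a Benjamini-Hochberg adjusted p under 0.05. Fold changes are given on the log2 scale with their standard error (SE). The central question of the design was what the loss of dietary cysteine does to a liver that cannot make its own, and this was first read as Cse-/- against Cse+/- mice on the same no-Cys diet. Only Foxa3 of the 9 genes was called, and it was lower in Cse-/- livers. Over all 14759 genes, 23.8% were called in this comparison, and 36.2% had an unadjusted p under 0.05, as did 1 of the 9. The median log2 fold change of the 9 genes was 0.07, with 5 positive and 4 negative. DESeq2 also called 1, where it called 13.1% of 27464 genes with any count.

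Hnf4a encodes the nuclear receptor that most broadly drives adult hepatocyte genes. Its CPM was 774, 652, 782 and 762 in the 4 Cse-/- no-Cys livers and 880, 654, 687 and 616 in the 4 Cse+/- no-Cys livers. The Cse-/- values all lay within the wider range of the Cse+/- values. The log2 fold change was 0.07 (SE 0.12, edgeR adjusted p = 0.722), and the 95% interval spanned 0.883-fold to 1.24-fold. A change of Hnf4a mRNA beyond that interval was therefore not detected, despite the large response of other genes in the same livers.

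Nr5a2, which acts with HNF4A on bile acid genes, gave the tightest estimate. It measured 79.1, 74.9, 77.7 and 73.0 CPM in Cse-/- no-Cys livers and 79.3, 77.3, 65.7 and 84.3 CPM in Cse+/- no-Cys livers. The log2 fold change was -0.01 with a 95% interval of -0.23 to 0.21 (edgeR adjusted p = 0.965). All 4 Cse-/- values lay within the range of the Cse+/- values.

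Foxa3 (HNF3γ), the FOXA member with the highest level in adult liver here, was at 38.0, 38.1, 59.2 and 37.7 CPM in Cse-/- no-Cys livers. It was at 60.0, 55.7, 75.4 and 70.0 CPM in Cse+/- no-Cys livers. The Cse-/- livers formed a close low group with the exception of mouse av07, which fell inside the Cse+/- range. The log2 fold change was -0.59 (SE 0.21, edgeR adjusted p = 0.0429), or 1.51-fold lower. The call did not hold in 6 of the 8 fits that left out a library of either group, in which the log2 fold change was -0.77 to -0.52 with adjusted p from 0.0163 to 0.119.

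Foxa1 and Foxa2, the other pioneer factors, were not called. Foxa1 was at 20.8, 20.1, 16.4 and 29.1 CPM in Cse-/- no-Cys livers and at 26.5, 24.0, 22.7 and 21.3 CPM in Cse+/- no-Cys livers, with a log2 fold change of -0.13 (SE 0.14, edgeR adjusted p = 0.545). Foxa2 was at 24.6, 25.1, 32.9 and 35.1 CPM against 32.5, 24.5, 25.0 and 19.7 CPM, and its log2 fold change was positive, 0.21 (SE 0.19, edgeR adjusted p = 0.458). Both genes overlapped between the genotypes. The sign of Foxa3 was therefore not shared by Foxa2, although the difference between the 2 genes was not tested.

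Cebpa, the C/EBP factor of the mature hepatocyte, was at 433, 326, 463 and 612 CPM in Cse-/- no-Cys livers and at 483, 564, 535 and 488 CPM in Cse+/- no-Cys livers. The Cse-/- livers were more spread and reached both above and below the Cse+/- livers (log2 fold change -0.18, SE 0.13, edgeR adjusted p = 0.356). Without av08, the highest liver, Cebpa was called at -0.35 (edgeR adjusted p = 0.0290) and the Foxa3 call was lost, and without av06, the lowest, Cebpa was at -0.049. Onecut1 was at 14.6, 4.91, 6.76 and 20.4 CPM against 10.6, 8.75, 17.7 and 3.96 CPM. Its log2 fold change of 0.19 had a 95% interval of -0.74 to 1.13, which is too wide to bound a 2-fold change in the upward direction.

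Neither xenobiotic receptor was called. Nr1i2 was at 152, 194, 146 and 118 CPM in Cse-/- no-Cys livers and at 132, 115, 131 and 153 CPM in Cse+/- no-Cys livers (log2 fold change 0.20, SE 0.15, edgeR adjusted p = 0.355). Nr1i3 was at 81.1, 62.9, 93.5 and 97.6 CPM against 68.3, 53.5, 49.5 and 118 CPM. Its high value in Cse+/- mouse av04 lay above all 4 Cse-/- livers, and the log2 fold change was 0.21 (SE 0.24, edgeR adjusted p = 0.558), with an interval of 0.818-fold to 1.64-fold. Without av04 the log2 fold change of Nr1i3 was 0.55 (edgeR adjusted p = 0.0676), and over the fits that left out a library it was 0.07 to 0.55.

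**Figure D2:**
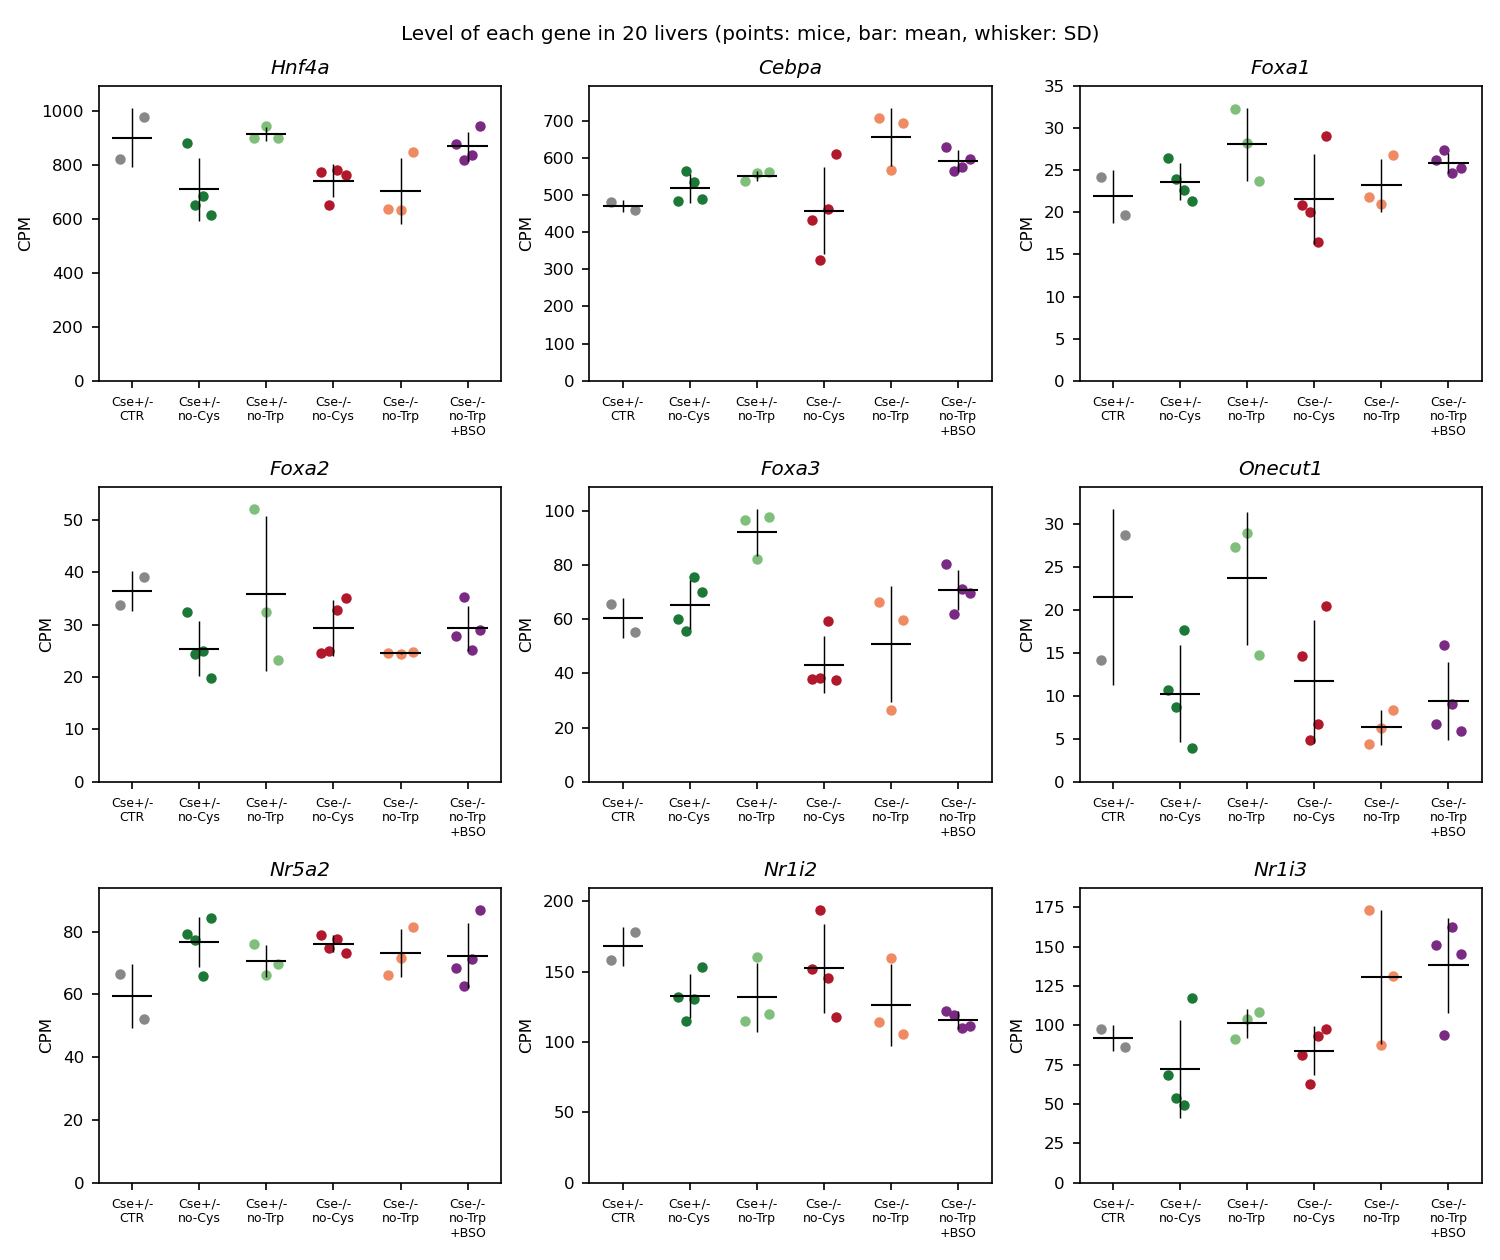
CPM of the 9 genes in each of the 20 livers by genotype and diet, where points are mice, the bar is the group mean and the whisker is 1 SD. All 9 genes overlapped between genotypes on no-Cys, Foxa3 with 37.7 to 59.2 CPM in Cse-/- and 55.7 to 75.4 CPM in Cse+/- livers.

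The same genotypes were then compared on the no-Trp diet, where cysteine was supplied. Onecut1 was called, lower in Cse-/- livers, which is 1 of 9 genes where 2.64% of all genes were called. In addition, 4 of the 9 had an unadjusted p under 0.05 in edgeR, as did 18.4% of all genes. DESeq2 called 2, Foxa3 and Onecut1, where it called 2.65% of 27464 genes with any count. Onecut1 was at 4.36, 6.23 and 8.37 CPM in Cse-/- no-Trp livers and at 27.4, 28.9 and 14.8 CPM in Cse+/- no-Trp livers. The groups did not overlap, and the level in Cse-/- livers was 3.75-fold lower (log2 fold change -1.91, SE 0.51). The edgeR adjusted p was 0.049997, at the edge of the threshold, and it was 0.0581 to 0.151 in each of the 6 fits that left out a library.

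Foxa3 was at 66.4, 26.3 and 59.5 CPM in Cse-/- no-Trp livers and at 96.5, 82.2 and 97.7 CPM in Cse+/- no-Trp livers, again with no overlap. The log2 fold change was -0.85 (SE 0.24) with an edgeR adjusted p of 0.0580, which missed the threshold. Without av15, the lowest liver, Foxa3 had a log2 fold change of -0.55 (edgeR adjusted p = 0.163), and without av14 it was called at -1.11 (edgeR adjusted p = 0.0261). Hnf4a was at 638, 632 and 847 CPM against 899, 945 and 901 CPM, also without overlap (log2 fold change -0.38, SE 0.14, edgeR adjusted p = 0.141). Foxa2 was at 24.6, 24.5 and 24.8 CPM against 52.2, 32.4 and 23.3 CPM. Here the 3 Cse-/- livers were nearly equal and the 3 Cse+/- livers were not (log2 fold change -0.54, SE 0.22, edgeR adjusted p = 0.196). The value of Foxa2 was -0.18 without Cse+/- mouse av17 and -0.77 without av20. Cebpa had the opposite direction, with 708, 568 and 695 CPM in Cse-/- and 537, 559 and 561 CPM in Cse+/- livers, which did not overlap but were not called (log2 fold change 0.25, SE 0.15, edgeR adjusted p = 0.399).

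Whether the genotype difference changed with the missing amino acid was tested by the interaction of genotype with diet, no-Cys against no-Trp. None of the 9 genes was called by edgeR or DESeq2, and 4.36% of all genes were called. An unadjusted p under 0.05 in edgeR was found for 4 of the 9 and for 19.4% of all genes. Onecut1 had the largest value, 2.098 (SE 0.67, edgeR adjusted p = 0.0819), since its genotype difference was 0.19 on no-Cys and -1.91 on no-Trp. Foxa2 followed with 0.75 (SE 0.29, edgeR adjusted p = 0.157) and Hnf4a with 0.44 (SE 0.18, edgeR adjusted p = 0.172). Cebpa, the fourth with an unadjusted p under 0.05, had the opposite sign, -0.43 (SE 0.20, edgeR adjusted p = 0.251). Each of these 4 genes was called in a single fit that left out a library. These were Onecut1 at 2.4998 without av03, where 3.54% of all genes were called, Foxa2 at 0.98 without av20 (3.38%), Hnf4a at 0.56 without av01 (5.3%) and Cebpa at -0.60 without av08 (7.8%). Foxa2 was at 0.40 without av17. Foxa3 had an interaction of 0.26 with a 95% interval of -0.39 to 0.91, so that a difference between its genotype effects on the 2 diets was not detected.

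Missing cysteine was compared with missing tryptophan within Cse-/- mice, which sets 2 amino acid deficiencies side by side. Cebpa was called and was lower on no-Cys, 1 of the 9 genes against 10.4% of all genes, and 2 of the 9 had an unadjusted p under 0.05, as did 26.5% of all genes. Its levels on no-Cys, given above, were 433, 326, 463 and 612 CPM, and those on no-Trp were 708, 568 and 695 CPM in mice av14, av15 and av16. The groups overlapped through mouse av08 at 612 CPM and mouse av15 at 568 CPM. The log2 fold change was -0.52 (SE 0.14, edgeR adjusted p = 0.0253), or 1.43-fold lower. The call did not hold in 5 of the 7 fits that left out a library, while the log2 fold change stayed at -0.69 to -0.39. Cebpa is also a gene of fat cells, and its highest level was in av14, the library with the raised adipocyte markers: without av14 and av17 the log2 fold change was -0.46 (edgeR adjusted p = 0.109). The other library with raised markers, av17, had 537 CPM of Cebpa, the lowest of its group, and av16, without raised markers, had 695 CPM. The part of these markers in the result was not tested.

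Nr1i3 was at 173, 87.6 and 131 CPM in Cse-/- no-Trp livers. The first and last lay above all 4 Cse-/- no-Cys livers, and mouse av15 at 87.6 CPM lay among them. The no-Cys level was 1.56-fold lower but was not called (log2 fold change -0.64, SE 0.26, edgeR adjusted p = 0.115). Without av15 the number of the 9 genes called in this comparison was 3: Cebpa, Nr1i3 at -0.87 (edgeR adjusted p = 0.0424) and Foxa3 at -0.55 (edgeR adjusted p = 0.0401), where 1611 of 14693 genes tested were called, or 11%. Without av14, Nr1i3 was at -0.39 and Foxa3 at 0.0053, and with all libraries Foxa3 was at -0.23 (SE 0.22, edgeR adjusted p = 0.538). Tomm40l, which overlaps Nr1i3, had a value of -0.53 in the same comparison (edgeR adjusted p = 0.198). Hnf4a had a log2 fold change of 0.07 (SE 0.13), Nr5a2 of 0.06 (SE 0.12) and Foxa1 of -0.11 (SE 0.15), all with edgeR adjusted p of 0.700 or more.

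BSO was added to the no-Trp diet to lower glutathione without removing cysteine. None of the 9 genes was called against no-Trp alone in Cse-/- mice by edgeR or by DESeq2, while 0.793% of all genes were called, and 2 of the 9 had an unadjusted p under 0.05 in edgeR, as did 13% of all genes. These were Hnf4a, at 877, 818, 839 and 943 CPM with BSO (log2 fold change 0.30, SE 0.13, edgeR adjusted p = 0.297), and Foxa3, at 80.3, 62.1, 71.1 and 69.7 CPM with BSO (log2 fold change 0.48, SE 0.22, edgeR adjusted p = 0.361). Both were positive, and both overlapped the no-Trp livers. The value of Foxa3 was 0.16 without no-Trp mouse av15 and 0.71 without av14. Foxa2 was at 25.3 to 35.4 CPM with BSO, just above the 3 no-Trp livers, and was not called (log2 fold change 0.25, SE 0.21, edgeR adjusted p = 0.661).

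Against the BSO group, the no-Cys livers of Cse-/- mice again showed no call by edgeR, with 2.75% of all genes called. An unadjusted p under 0.05 was found for 4 of the 9 and for 20% of all genes. DESeq2 called 2, Foxa3 and Nr1i3, where it called 3.11% of 27464 genes with any count. Foxa3 was lower on no-Cys without overlap, 37.7 to 59.2 CPM against 62.1 to 80.3 CPM (log2 fold change -0.71, SE 0.21, edgeR adjusted p = 0.0634). Hnf4a did not overlap either, at 652 to 782 CPM against 818 to 943 CPM (log2 fold change -0.23, edgeR adjusted p = 0.285). Nr1i3 was at 151, 93.9, 163 and 145 CPM in the BSO group, so that only mouse av10 lay among the no-Cys livers (log2 fold change -0.72, SE 0.24, edgeR adjusted p = 0.100). Tomm40l was called in this comparison at -1.001 (edgeR adjusted p = 0.0317), and reads of these 2 genes cannot be separated where they overlap. Nr1i2 had the opposite sign, 0.40 (SE 0.15, edgeR adjusted p = 0.143), and Cebpa was at -0.37 (SE 0.13, edgeR adjusted p = 0.127). Foxa1 was at -0.26 (SE 0.14, edgeR adjusted p = 0.303). Without no-Cys mouse av08, edgeR called 3 of the 9, Cebpa at -0.54, Foxa1 at -0.44 and Nr1i2 at 0.50, and the share of all genes called rose as well, to 6.97%. Over the fits that left out other libraries this share fell to as low as 0.352%, without av06.

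**Figure D3:**
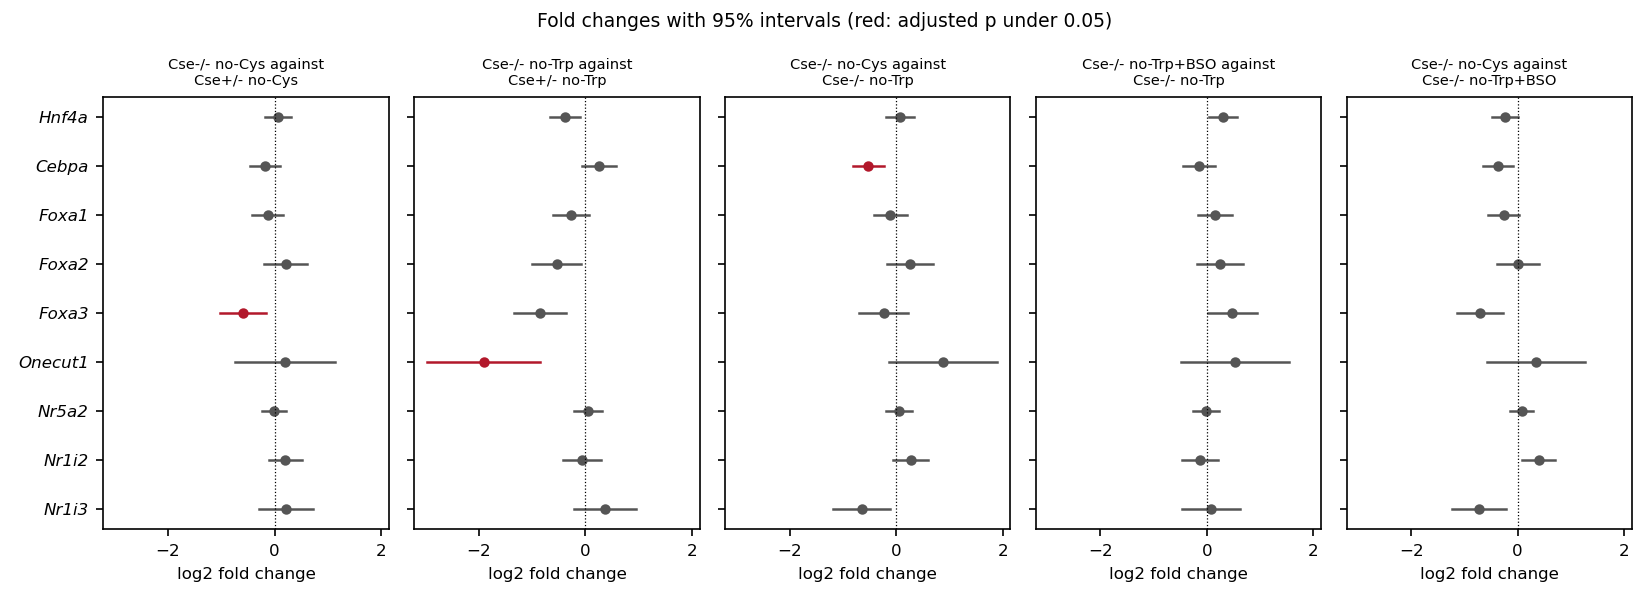
Log2 fold changes of the 9 genes in 5 comparisons, where points are estimates, lines are 95% intervals and red marks an adjusted p under 0.05. Only Foxa3, Onecut1 and Cebpa were called, each in a different comparison, and the intervals of Onecut1 were the widest.

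The 3 remaining comparisons were made within Cse+/- mice, which can still make cysteine from methionine. On no-Cys against no-Trp, edgeR called none of the 9 genes and 8.04% of all genes. DESeq2 called 1, Hnf4a, and 5.4% of 27464 genes with any count. An unadjusted p under 0.05 was found for 4 of the 9, Hnf4a, Foxa2, Foxa3 and Onecut1, and for 24.4% of all genes. Hnf4a was lower on no-Cys with no overlap of the groups, 616 to 880 CPM against 899 to 945 CPM (log2 fold change -0.37, SE 0.13, edgeR adjusted p = 0.0774), and without no-Cys mouse av01 it was called at -0.48 (edgeR adjusted p = 0.0178), where 7.44% of all genes were. Foxa3 was likewise lower without overlap, 55.7 to 75.4 CPM against 82.2 to 97.7 CPM (log2 fold change -0.50, SE 0.22, edgeR adjusted p = 0.168). Onecut1 had the most negative value, -1.22 (SE 0.46, edgeR adjusted p = 0.109), with 3.96 to 17.7 CPM against 14.8 to 28.9 CPM, and Foxa2 was at -0.49 (SE 0.21, edgeR adjusted p = 0.147). The groups of both overlapped. Without no-Trp mouse av17, the highest of its group, Foxa2 was at -0.14, and without av20 it was called at -0.72 (edgeR adjusted p = 0.0391), where 4.45% of all genes were. Nr1i3 was at -0.49 (SE 0.26, edgeR adjusted p = 0.252), with overlap, and was called at -0.83 without av04 (edgeR adjusted p = 0.0275), where 9.01% of all genes were.

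Against the 2 control-diet livers, no-Cys gave no call among the 9 genes by edgeR or DESeq2, with 2.18% of all genes called. An unadjusted p under 0.05 was found for 3 of the 9 and for 16.6% of all genes. Those 3 were Hnf4a at -0.35 (SE 0.14), Foxa2 at -0.52 (SE 0.23) and Nr5a2 at 0.37 (SE 0.13), with edgeR adjusted p of 0.216, 0.262 and 0.157. No-Trp against control gave none by either tool, with 0.0474% of all genes called and 1 of the 9, Foxa3, at an unadjusted p under 0.05, where 9.29% of all genes were (log2 fold change 0.61, SE 0.27, edgeR adjusted p = 0.501). The control group held only 65.6 and 55.3 CPM of Foxa3, below all 3 no-Trp livers. With 2 control mice, the SE of Hnf4a was 0.14 and 0.15 in these comparisons, against 0.12 between the genotypes on no-Cys.

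Foxa3 (ENSMUSG00000040891) lies at chr7:19013284-19023538 on the minus strand of GRCm38, Cebpa (ENSMUSG00000034957) at chr7:35119293-35121928 on the plus strand and Onecut1 (ENSMUSG00000043013) at chr9:74861921-74891781 on the plus strand. These 3 genes, the ones called in any comparison, are shown by the 250 bases before their RefSeq transcription start (GRCm38.p6), read 5′ to 3′ along the gene. Capitals mark a match to any of 9 short motifs searched on both strands: FOXA TGTTTAC and TATTTAC, C/EBP TTGCNNAA, HNF4 CAAAGTCCA, NR5A CAAGGTCA, ONECUT ATCGAT, NRF2 TGACNNNGC, ATF4 TGATGNAA and the TATA box TATAAA.

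Foxa3 promoter, chr7:19023540-19023789, minus strand: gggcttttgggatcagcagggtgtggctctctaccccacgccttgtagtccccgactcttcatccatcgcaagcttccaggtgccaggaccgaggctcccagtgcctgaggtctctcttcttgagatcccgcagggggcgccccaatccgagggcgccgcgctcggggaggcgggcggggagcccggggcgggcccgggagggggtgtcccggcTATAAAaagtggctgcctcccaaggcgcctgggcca

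Cebpa promoter, chr7:35119043-35119292, plus strand: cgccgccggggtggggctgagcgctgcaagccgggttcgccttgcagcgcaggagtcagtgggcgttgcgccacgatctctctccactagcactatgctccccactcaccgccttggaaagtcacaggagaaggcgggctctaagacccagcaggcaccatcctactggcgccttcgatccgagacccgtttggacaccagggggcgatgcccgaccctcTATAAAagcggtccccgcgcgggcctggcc

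Onecut1 promoter, chr9:74861671-74861920, plus strand: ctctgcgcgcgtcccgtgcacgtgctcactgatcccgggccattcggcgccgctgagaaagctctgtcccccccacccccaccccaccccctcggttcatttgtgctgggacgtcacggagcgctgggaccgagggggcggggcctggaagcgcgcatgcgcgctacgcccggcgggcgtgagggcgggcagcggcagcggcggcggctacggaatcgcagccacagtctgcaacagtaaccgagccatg

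The only match in the Foxa3 promoter was a TATA box that starts 36 bases before the start, and the only match in the Cebpa promoter was a TATA box that starts 30 bases before it. The Onecut1 window held none of the 9. TATAAA occurs in 12.4% of the 32851 mouse promoter windows of this length and in 4 of the 13 listed promoters of the 9 genes, also 1 each of Foxa2 and Nr5a2. Among the 13, FOXA TGTTTAC was found in that of Foxa1 (3.17% of all windows), FOXA TATTTAC in that of Nr1i2 (2.73%), and C/EBP TTGCNNAA (9.56%) and ATF4 TGATGNAA (3.45%) in the second promoter of Nr5a2. HNF4 CAAAGTCCA (0.384%), NR5A CAAGGTCA (1.33%), ONECUT ATCGAT (0.728%) and NRF2 TGACNNNGC (10.2%) were found in none of the 13. These are matches of letters only, and the counts do not separate transcripts by promoter.

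The genes around the circuit were examined through lists of regulators and known targets, which share some genes with each other. Of 14 other liver-enriched transcription factors tested, 3 fell and none rose in Cse-/- against Cse+/- livers on no-Cys (edgeR, with DESeq2 calling the same numbers), and the list median was -0.09 against -0.01 for all genes. Over all genes, 12.2% fell and 11.6% rose. They included Hhex, a homeobox factor of liver development, at -1.03 (SE 0.22, edgeR adjusted p = 0.00241), and Cebpb, an inducible C/EBP factor, at -0.68 (SE 0.21, edgeR adjusted p = 0.0271). Hhex was at 36.8 to 72.3 CPM in Cse-/- and at 83.8 to 160 CPM in Cse+/- livers, without overlap. The count of 3 fell to 1 without mouse av07 or without mouse av08. The sum of the bile duct markers was also lower, at 16.8 to 29.4 CPM in Cse-/- and 46.9 to 58.8 CPM in Cse+/- no-Cys livers. Most of it was Spp1, at a mean of 16.0 against 41.5 CPM. Sox9 was the only other marker called, also lower, and the part of these markers in the result was not tested.

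Among 21 other nuclear receptors and xenobiotic sensors, 2 rose and 4 fell in the same comparison, with a list median of -0.05, where 11.6% of all genes rose and 12.2% fell. Nr2f2 (COUP-TFII), which competes with HNF4A for DNA, fell by 0.82 on the log2 scale (SE 0.09, edgeR adjusted p = 6.9e-06), from 60.6 to 70.1 CPM in Cse+/- livers to 33.2 to 40.5 CPM in Cse-/- livers. Pparg rose by 0.73 (SE 0.20) and Rxrb by 0.26 (SE 0.08), with edgeR adjusted p of 0.0103 and 0.0266. The 2 that rose were 1 without av01, av02, av05 or av06 and 5 with library totals as the only scaling. On no-Cys against no-Trp in Cse-/- mice, 6 of the 21 fell and none rose by edgeR or DESeq2, with a list median of -0.15, where 5.35% of all genes fell and 5.05% rose. Among these was Thrb, a thyroid hormone receptor, at -0.70 (SE 0.14, edgeR adjusted p = 0.00520). The 6 were 3 without av05, av06, av07, av14 or av16, of which av14 is the library with the raised adipocyte markers. In the same comparison 4 hepatocyte markers, 3 red cell markers and 1 bile duct marker fell and none of them rose. The part of these markers in the receptor count was not tested. Rxra, a partner of PXR and CAR, named after its values were seen, had a value of -0.05 between genotypes on no-Cys (edgeR adjusted p = 0.687). Of 14 coregulators and chaperones, 3 rose and none fell by edgeR or DESeq2 in that comparison, with a list median of 0.05. They were Hsp90aa1 at 0.82, Hsp90ab1 at 0.82 and Ncor1 at 0.30. When a library was left out, 2 to 4 rose. HSP90 is known to hold CAR in the cytoplasm, but the place of CAR in the cell was not measured, and a link to these values was not tested.

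The known targets of the 9 genes were then counted. Of 19 HNF4A targets tested, 7 fell and none rose by edgeR or by DESeq2 in Cse-/- against Cse+/- livers on no-Cys, with a list median of -0.51. Over all genes, 12.2% fell. Markers of red cells were lower in the same livers: 5 of 5 tested fell, and their sum was 69.1 to 114 CPM in Cse-/- and 201 to 406 CPM in Cse+/- livers. The sum of the bile duct markers named above, mostly Spp1, was also lower, with 2 of 6 tested falling. The part of either set of markers in the HNF4A target counts was not tested. Otc, the urea cycle enzyme, fell by 1.11 on the log2 scale (SE 0.15, edgeR adjusted p = 5.4e-05): it was at 151, 149, 145 and 270 CPM in Cse-/- livers and at 379, 398, 375 and 393 CPM in Cse+/- livers. Cyp7a1, the rate-limiting enzyme of bile acid synthesis, fell by 1.43 (SE 0.51, edgeR adjusted p = 0.0466). Ttr, the thyroid hormone carrier, fell by 1.04 (SE 0.15, edgeR adjusted p = 8.8e-05). The other 4 were Apoa1, Apoc3, F11 and Apoa2, which fell by 0.77, 0.83, 0.85 and 0.51. Within the same list Apob (0.15), Mttp (0.01) and Pck1 (-0.18), named after their values were seen, were not called.

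Against no-Trp in Cse-/- mice, 5 of the 19 HNF4A targets fell and none rose by edgeR, with a median of -0.37, where 5.35% of all genes fell, and DESeq2 called 6. Otc (-0.93, edgeR adjusted p = 0.00168) and Apoa2 (-0.72, edgeR adjusted p = 0.00686) changed most. The count of 5 was 3 without no-Cys mouse av07 and 2 without no-Trp mouse av14, the library with the raised adipocyte markers. Of the red cell markers, 3 of 5 tested fell here, with sums of 69.1 to 114 CPM on no-Cys and 119 to 184 CPM on no-Trp, and 1 of 6 bile duct markers fell, with sums of 16.8 to 29.4 CPM and 28.2 to 46.9 CPM. The 3 red cell markers were 0 without av05, av06, av07 or av14 and 2 without av16. Hepatocyte markers share Ttr and Apoa1 with the HNF4A list, and 4 of them fell here and none rose. When a library was left out, 1 to 4 of the hepatocyte markers fell. None of 4 adipocyte markers tested was called, with sums of 7.44 to 11.95 CPM and 9.23 to 36.7 CPM, and the part of these markers in the target count was not tested. With BSO none of the 19 was called by edgeR, where 0.305% of all genes fell and 0.488% rose, and DESeq2 called 1, lower. Hnf4a itself had values of 0.07, 0.07 and 0.30 in these 3 comparisons, and none was called.

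The targets of the other members gave mixed counts on no-Cys between genotypes, where 23.8% of all genes were called, 11.6% higher and 12.2% lower. Of 9 C/EBPα targets, 1 rose, Cps1 at 0.58 (SE 0.20, edgeR adjusted p = 0.0457), and 1 fell, Alb at -1.26 (SE 0.17, edgeR adjusted p = 4.8e-05). Alb was at 25507 to 49494 CPM in Cse-/- and at 64175 to 87978 CPM in Cse+/- no-Cys livers. Of 9 FOXA targets, Igfbp1 rose by 1.26 (edgeR adjusted p = 0.0143) and 3 fell, among them Alb and Ttr. Of 8 NR5A2 targets, the sterol exporters Abcg8 and Abcg5 rose by 0.69 and 0.39 and Cyp7a1 fell. When a library was left out, the count of C/EBPα targets that rose was 0 without av02, av03, av05, av06 or av08 and 2 without av01. That of FOXA targets that rose was 0 without av05 or av06 and 2 without av08. That of NR5A2 targets that fell was 0 without av01, av03, av05, av06 or av07 and 2 without av08, and 1 rose instead of 2 without av01, av03, av05, av06 or av08.

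Of 26 targets of CAR and PXR tested, 9 rose and 5 fell in Cse-/- against Cse+/- livers on no-Cys, with a list median of 0.33, where 11.6% of all genes rose and 12.2% fell. DESeq2 called 10 higher and 6 lower. When a library was left out, 6 to 9 rose and 4 to 7 fell, and over all alternatives up to 12 rose. The list therefore split. Abcc4, an export pump, was at 13.9, 14.4, 21.5 and 14.0 CPM in Cse-/- and at 2.16, 2.05, 3.03 and 2.26 CPM in Cse+/- no-Cys livers, a rise of 2.75 on the log2 scale (SE 0.27, edgeR adjusted p = 1.8e-06). Sult1e1, the estrogen sulfotransferase, rose by 4.72 (SE 1.16, edgeR adjusted p = 0.00594), from 0.142 to 0.721 CPM to 0.807 to 29.9 CPM, with the highest value in mouse av08. Its Cse-/- mean was 9.42 CPM with an SD of 13.7 CPM, so that the size of this rise is uncertain. Cyp2c29 fell by 1.17 (SE 0.22, edgeR adjusted p = 9.8e-04) and Cyp2c55 by 1.40 (SE 0.48, edgeR adjusted p = 0.0417). The usual reporter genes of each receptor, named after their values were seen, were not called: Cyp2b10 for CAR had a value of 0.00 and Cyp3a11 for PXR a value of -0.61 (edgeR adjusted p = 0.0718).

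In Cse-/- mice, 4 of the 26 rose and 3 fell on no-Cys against no-Trp, and 2 rose and 1 fell with BSO against no-Trp. DESeq2 called 4 higher and 6 lower in the first comparison, and 4 higher and 3 lower in the second. Over all genes, 5.05% rose and 5.35% fell in the first comparison, and 0.488% and 0.305% in the second. Alas1, the first enzyme of heme synthesis, rose in both, by 1.21 (edgeR adjusted p = 6.1e-04) and by 0.94 (edgeR adjusted p = 0.0181). Papss2, which makes the sulfate donor, fell in both, by 0.72 (edgeR adjusted p = 0.00362) and by 0.62 (edgeR adjusted p = 0.0383). Both comparisons use the same 3 no-Trp livers. Alas1 was at 383, 552 and 344 CPM in these, at 797 to 1129 CPM on no-Cys and at 687 to 924 CPM with BSO. In Cse+/- no-Cys livers it was at 897 to 1366 CPM, and the genotype difference on no-Cys was -0.09 (edgeR adjusted p = 0.723). The counts moved with single libraries. Of those on no-Cys against no-Trp, the 3 that fell were 1 to 6 when a library was left out, with 1 without any of av05, av06, av07, av14 and av16, 5 without av15 and 6 without av08. The 2 that rose with BSO were none without av09, av11, av14 or av16, 1 without av12 and 4 without av10. The 1 that fell with BSO, Papss2, was lost without av09, av10, av11 or av15.

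**Figure D4:**
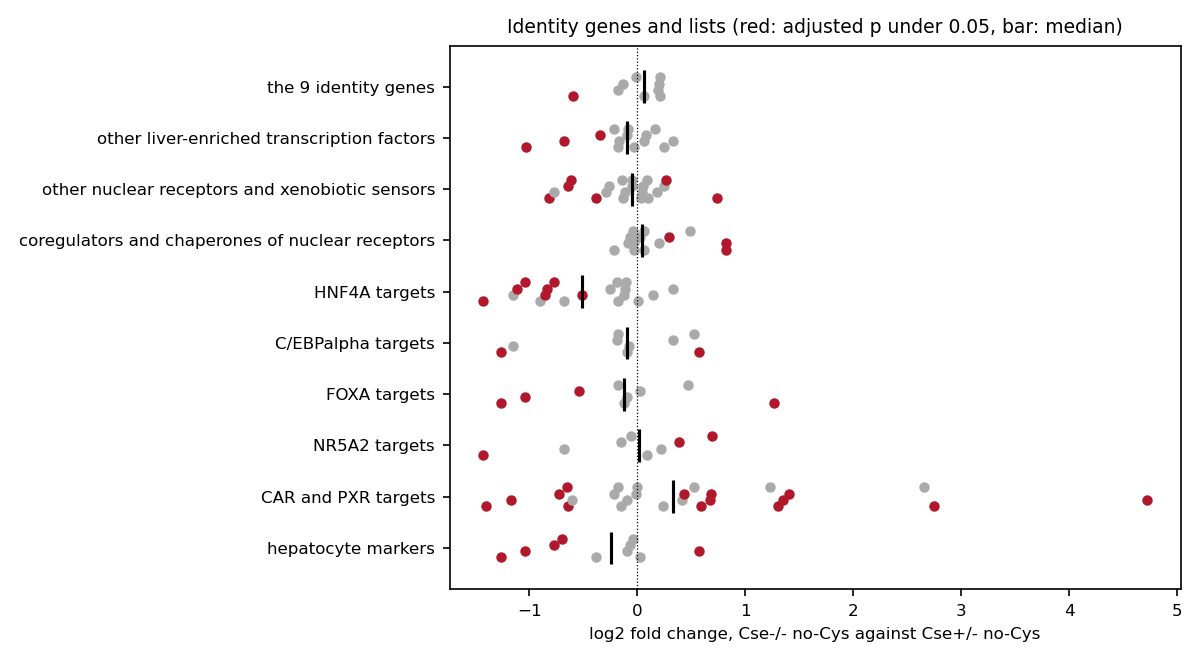
Log2 fold changes in Cse-/- against Cse+/- livers on no-Cys for the 9 genes and 9 lists, where points are genes, red marks an adjusted p under 0.05 and the bar is the median. The 9 genes lay between -0.59 and 0.21, whereas HNF4A targets had a median of -0.51 and CAR and PXR targets a median of 0.33 with a spread up to 4.72.

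Across the 20 livers the 9 genes did not vary as a block. Their 36 pairs had Pearson correlations of log2 CPM from -0.79 to 0.67, with a median of 0.07 and 20 above 0. These correlations share libraries and are given as a description. The gene whose pattern was most like that of each member was Ppp1r8 for Hnf4a (r = 0.82), Dsg1c for Cebpa (0.85), Syne4 for Foxa1 (0.86), Mbnl2 for Foxa2 (0.85), Vegfb for Foxa3 (0.85), B3galt1 for Onecut1 (0.86), Fut11 for Nr5a2 (0.81), Rabgef1 for Nr1i2 (0.85) and Hnf4aos for Nr1i3 (0.88), out of 12582 genes. Tbx3, a liver transcription factor, was the second most like Cebpa (0.83), and the fibrinogen gene Fga the second most like Foxa1 (0.81). Hnf4aos, annotated as antisense to Hnf4a, was at 2.96 to 14.1 CPM, and shares no exon bases with it.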

How the data were processed

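RNA was measured in 20 livers by paired-end sequencing of polyA-selected libraries (61 bases a read, a kit that does not mark strand). Per the study's methods and the submitters' processing notes, the authors aligned reads with HISAT2 2.1.0 to GRCm38 and made the deposited gene counts with HTSeq 0.11.0; the annotation release and strand setting are not given in the sources used here. Columns of the count table carry mouse numbers, which the study's list of mice ties to genotype and diet, with the group sizes of the labels. 1 column of no listed sample was not used. Symbols were found for 45229 of 46078 genes.

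Counts were analysed in R 4.3.3 with edgeR 4.0.16: genes were filtered with filterByExpr (minimum count 10, minimum total 15), scaled by TMM and fitted in 1 quasi-likelihood model over the 6 groups. P-values were adjusted by Benjamini-Hochberg over 14759 genes. CPM are counts scaled to the TMM-adjusted library size. Lengths came from GENCODE gene models of GRCm38. Libraries of 1 group differed by more than counting noise (chi-square per gene 9.60 to 64.2 in 25 pairs), and totals of 11785740 to 57986121 counts set the precision. P-values measure the spread between these mice. On counts simulated for Cse-/- against Cse+/- livers on no-Cys over 14759 genes, the test recovered 35.8% of genes changed 1.5-fold, 82.1% of those changed 2-fold and 98.5% of those changed 4-fold, with 4 false calls.

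The 9 genes, the gene lists and the tests were chosen with earlier results of these data known. Besides the 9 genes, Cth and overlapping genes, the text names from each list at most 2 called genes of largest change per direction with a mean of at least 1 CPM, and the 3 genes most correlated with each of the 9. Others are named only in giving all members of a count, or as chosen after their values were seen. Alternatives were DESeq2 1.42.0, other scaling factors and filters, fits restricted to the 2 groups of a comparison, a threshold of 0.01 on the adjusted p, thinning to the shallowest library and leaving out each library. Promoters are those of RefSeq. Some genes counted in the lists and 1 motif are not reported here.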

Additional observations from a re-analysis of the deposited data

Results flagged for a closer look

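Among 27 sets of 4 libraries of 1 group, for the 9 genes, a single liver stood apart from the other 3 in 2 sets by Dixon's criterion, which chance meets in about 1 of 20 sets. Both were in Cse-/- mice on no-Cys. Hnf4a was at 652 CPM in mouse av06, below the 762 to 782 CPM of the other 3, and the gap was 0.844 of the range. Foxa3 was at 59.2 CPM in mouse av07, above the 37.7 to 38.1 CPM of the other 3, and the gap was 0.980 of the range. Without av07 the Foxa3 call against Cse+/- no-Cys livers was kept.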

How the results depend on the processing

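No paired analysis was possible because the columns of the count table carry mouse numbers and not the replicate numbers of the labels. Of 81 values for the 9 genes, 37 kept direction and call in all alternatives, 24 changed sign and 21 lost or gained a call in some. All 3 called values lost the call in some and none of them changed sign. The cause of these changes was not tested.

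The number of the 9 genes called by DESeq2 was 2 for no-Cys against BSO, 2 between genotypes on no-Trp and 1 for no-Cys against no-Trp in Cse+/- mice. In these comparisons DESeq2 called 3.11%, 2.65% and 5.4% of 27464 genes with any count. Without a filter the numbers of the 9 were 2, 2 and 1, with 2 for no-Cys against no-Trp in Cse-/- mice and 1 for the interaction. The shares of all genes called were then 2.12%, 2.08%, 4.35%, 5.25% and 2.95%, in the same order. With only the groups compared, 2 of the 9 were called for no-Cys against BSO, where 4.11% of all genes were. For no-Cys against no-Trp the number was 1 in Cse+/- mice (4.26% of all genes) and 0 in Cse-/- mice (3.81%). At an adjusted p of 0.01 there were 0 in each comparison that had 1, where 0.488% to 12.6% of all genes were called. Between genotypes on no-Cys the count was 0 with library totals as the only scaling (Foxa3 edgeR adjusted p = 0.141, 30.7% of all genes called). After thinning the count was 0 as well (Foxa3 edgeR adjusted p = 0.0540, 19.2% of all genes called). Without av14 and av17, chosen after seeing the data, the count was 0 for no-Cys against no-Trp in Cse-/- mice, where 4.97% of all genes were called. Leaving out single libraries gave 0 to 1 between genotypes on either diet (on no-Cys the 1 was Cebpa and not Foxa3 without av08), for no-Cys against no-Trp in Cse+/- mice and for the interaction, and 0 to 3 for no-Cys against no-Trp and against BSO in Cse-/- mice. In these fits 18.1% to 23.7% of all genes were called between genotypes on no-Cys and 0.742% to 2.87% on no-Trp. The shares were 4.05% to 9.01% for no-Cys against no-Trp in Cse+/- mice and 2.37% to 7.8% for the interaction. In Cse-/- mice no-Cys gave 4.65% to 12.6% against no-Trp and 0.352% to 6.97% against BSO. The Foxa3 call was kept only without av02 or av07, the Cebpa call only without av08 or av15, and the Onecut1 call in no such fit.

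Values that changed sign were at most 0.35 in size on the log2 scale before the change, and at most 0.27 after it. With library totals only, values were 0.024 for Foxa1 and 0.16 for Nr5a2 between genotypes on no-Cys, 0.0018 for Nr1i2 between genotypes on no-Trp, -0.0087 for Nr1i2 on no-Cys against no-Trp in Cse+/- mice, 0.049 for Foxa2 on no-Trp against control and 0.037 for Nr5a2 in the interaction. For Foxa2 on no-Cys against BSO the value was -0.014 without a filter, -0.00026 at a mean of at least 1 CPM, -0.017 after thinning and -3.8e-05 without av14 and av17. Nr1i2 on no-Cys against no-Trp in Cse+/- mice was -0.011 without a filter and -0.076 without av14 and av17, and Foxa2 on no-Trp against control was 0.037 after thinning. Without av14 and av17, Foxa3 and Nr5a2 on no-Cys against no-Trp in Cse-/- mice were 0.0024 and -0.0090, and Foxa1 and Nr1i3 in the interaction were -0.013 and 0.17.

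Leaving out single libraries between genotypes on no-Cys gave -0.075 to 0.041 for Nr5a2, -0.21 to 0.60 for Onecut1 and -0.30 to 0.00029 for Foxa1. On no-Cys against no-Trp in Cse-/- mice it gave -0.28 to 0.010 for Foxa1, -0.55 to 0.0053 for Foxa3, -0.0079 to 0.14 for Nr5a2 and -0.0047 to 0.22 for Hnf4a. Against BSO it gave -0.091 to 0.11 for Foxa2 and -0.054 to 0.71 for Onecut1. For BSO against no-Trp it gave -0.13 to 0.057 for Nr5a2, -0.15 to 0.33 for Nr1i3 and -0.25 to 0.065 for Nr1i2. Between genotypes on no-Trp it gave -0.040 to 0.11 for Nr5a2 and -0.27 to 0.10 for Nr1i2, and on no-Cys against no-Trp in Cse+/- mice -0.076 to 0.18 for Nr1i2. In the interaction it gave -0.37 to 0.19 for Nr1i3, -0.034 to 0.28 for Foxa1, -0.043 to 0.51 for Foxa3 and -0.13 to 0.027 for Nr5a2. On no-Trp against control it gave -0.38 to 0.21 for Foxa2, -0.27 to 0.74 for Onecut1 and -0.094 to 0.16 for Hnf4a, and on no-Cys against control -0.036 to 0.26 for Foxa1 and -0.0081 to 0.24 for Foxa3.

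Library totals moved the median gene by 0.16 between genotypes on no-Cys and raised the share of called genes that were higher from 48.8% to 77.4%. The other shares that moved by over 10 points with this scaling went from 48.6% to 69.7% for no-Cys against no-Trp and from 48.3% to 75.6% against BSO in Cse-/- mice, from 53.0% to 75.2% between genotypes on no-Trp, from 45.3% to 61.5% and from 14.3% to 28.6% for no-Cys and no-Trp against control, and from 38.3% to 62.6% in the interaction. Upper-quartile factors moved that of BSO against no-Trp from 61.5% to 51.1%.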
